A study of Caenorhabditis elegans with 21 samples.

Results

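The *col-* genes of *C. elegans* were examined, which include the largest set of cuticle collagen genes of this nematode. The set is defined by symbol, and not every member is a cuticle collagen (*col-99* encodes a transmembrane collagen of neurons). A gene was taken as a member when its symbol, looked up from its WBGene identifier in the WBcel235 annotation, was col- followed by a number. This gave 156 members. Of these, 155 were among the 18887 genes of the young adult tables and all 156 were among the 46891 WBGene rows of the embryo tables.

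Cuticle collagens are secreted by the epidermis and crosslinked into the extracellular layer that encloses the animal. A first cuticle is made late in embryogenesis and a new one at each molt, and different collagen genes are transcribed for different stages and in a fixed order within a molt. OMA-1 is a CCCH zinc finger RNA-binding protein of oocytes and newly fertilized embryos that is degraded as the first divisions begin. FZY-1, the Cdc20 homolog, activates the anaphase promoting complex/cyclosome.

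The study asked how *oma-1(zu405)*, a P240L gain-of-function allele that stabilizes OMA-1 and kills embryos at 25 °C, changes RNA, and how the *fzy-1(D433N)* allele modifies that effect. In young adults, OMA-1::GFP was pulled down with GFP nanobody beads (RIP) from about 100000 animals per sample, and total RNA of the same strain served as input. The young adult samples are also listed at 25 °C. The 3 tagged strains were *oma-1::gfp*, its mutant form *oma-1(P240L)::gfp*, and the *fzy-1* double mutant *fzy-1(D433N);oma-1(P240L)::gfp*, with 2 input and 2 RIP libraries each. In embryos obtained by bleaching synchronized young adults grown at 25 °C, mRNA of N2 (the wild type strain), *oma-1(zu405)* and *fzy-1(D433N);oma-1(zu405)* was sequenced. The embryo tables hold libraries A1 and A2 of N2, C1 and C2 of *oma-1(zu405)*, and D1 and D3 of *fzy-1(D433N);oma-1(zu405)*. The labels list 3 embryo samples per genotype, and the remaining one of each was not analysed here. All 3 tagged strains carry the same GFP fusion and no untagged strain was analysed here, so RNA held by the beads alone cannot be told apart from RNA held by OMA-1. Nothing in the labels ties the repeats to separate cultures, so p-values measure the spread between these libraries, which may be technical.

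Young adult values are taken as RPKM, reads scaled by gene length and library depth, after division by 1000, a scale inferred from the values. Steps between low values make 1 read per kilobase worth 0.0573 to 0.159 RPKM in these libraries. Embryo libraries held 3599426 to 18815357 counts, and a count of 0 allows up to 0.159 to 0.833 CPM (counts scaled to a fixed library total), for counting error only. That bound is before the scaling described next. After that scaling, 1 count was worth 0.617 CPM in D1 and 0.0959 in A2. Embryo CPM below are scaled by trimmed mean of M values (TMM) factors, which ran from 0.45 in D1 and 0.677 in C2 to 1.75 in A2, so directions in embryos depend on that scaling. D1 and D3 stood apart from each other. The summed level of 9 body wall muscle genes was 163 CPM of all counts in D1 and 1626 in D3. N2 had 2249 and 2448, and the *oma-1(zu405)* libraries 451 and 504. Sperm genes differed between inputs. The summed RPKM of 26 of them was 32.6 and 29.8 in *oma-1::gfp*, 202 and 193 in *oma-1(P240L)::gfp*, and 2066 and 981 in the *fzy-1* double mutant.

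The members are short genes spread over the genome. The summed exon length ranged from 465 to 2960 bases with a median of 1020. Chromosome IV carries 41 members, V 31, X 27, II 24, I 21 and III 12. Another member lies within 10 kb of 50 of them. One run of 5 members, *col-167* to *col-171*, occupies X:6323488-6335221, and *col-92*, *col-93* and *col-94* lie side by side at III:10982139-10987873 (WBcel235). At least 1 other protein-coding gene overlaps 55 members. *col-159* and *col-160* overlap each other on the same strand at V:13198231-13202189, so their separate values are uncertain. *col-12* and *col-13* are neighbouring, near-identical genes, and how the authors' counting divided reads between such copies was not given in the sources used here. In the germline and soma classes that the authors added to their table, 0 of 156 members were oogenic, against 6.96% of all genes of that table. Genes of the gender-neutral germline type made up 49.4% of the members and 23.9% of all genes, and spermatogenic genes 3.85% and 9.39%. Soma-enriched genes made up 26.3% of the members and 18.6% of all genes, and germline-enriched genes 10.3% and 22.98%.

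In young adults a few members held most of the collagen RNA. The members together reached 9267 to 12130 RPKM per input library, 2.79% to 4.07% of the RPKM of all genes. The 10 highest members of each library held 63.5% to 73.1% of that sum. Averaged over the 6 inputs, 21 members reached 100 RPKM, 34 reached 10 and 83 reached 1. Each of the 155 members with young adult values was above 0 in at least 1 of the 12 libraries. RPKM is per length, so levels can be compared between genes.

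The highest member was *col-122* (IV:9563379-9564441). Its input level was 1239 and 1226 RPKM in *oma-1::gfp*, 987 and 1078 in *oma-1(P240L)::gfp*, and 998 and 840 in the *fzy-1* double mutant strain. The next in mean input level were *col-106* (905 RPKM), *col-124* (865), *col-140* (839) and *col-19* (777). *col-20* (670 RPKM), *col-8* (595), *col-184* (591), *col-181* (561) and *col-178* (491) completed the leading 10. Most neighbours in this order did not separate by library. *col-106* spanned 558 to 1114 RPKM over the 6 inputs, *col-124* 642 to 1115 and *col-20* 488 to 1031.

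**Figure D1:**
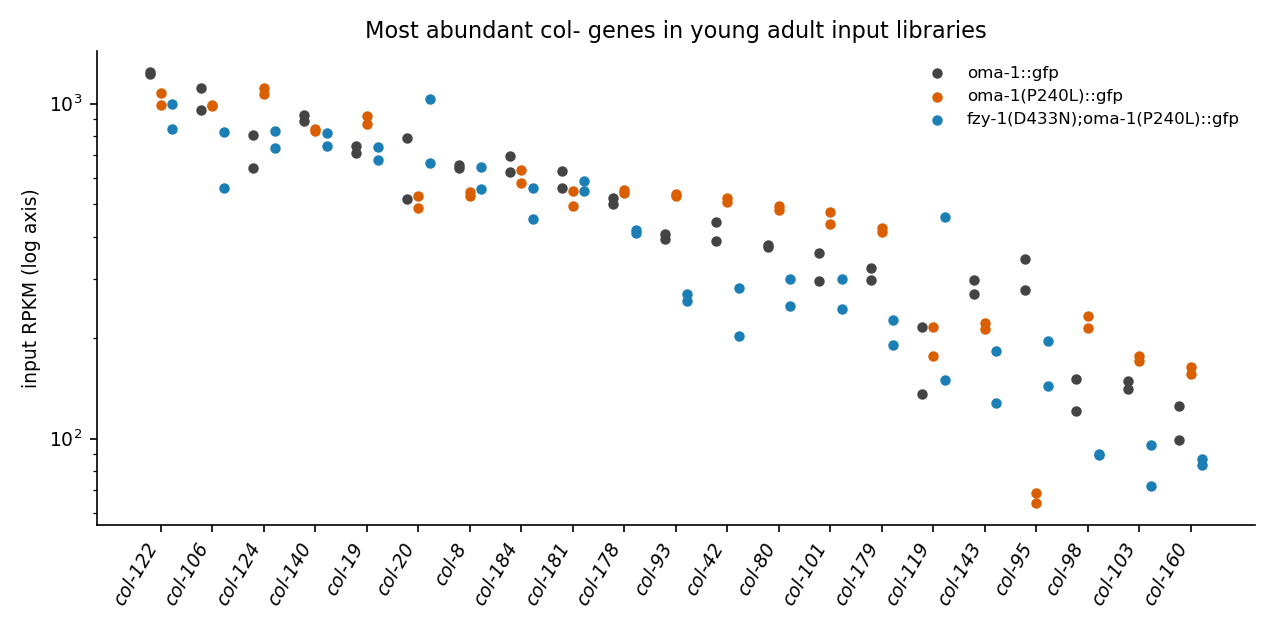
Input RPKM (log axis) of the 21 *col-* genes with a mean of at least 100 RPKM, in order of the mean over 6 inputs. Each point is 1 library, 2 per strain. *col-95* stands out, with 68.7 and 64.0 RPKM in *oma-1(P240L)::gfp* against 343 and 277 in *oma-1::gfp*.

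Collagens with a described role or stage covered the whole range. *col-19*, an adult-specific collagen, had 710 and 749 RPKM in *oma-1::gfp* inputs, 867 and 917 in *oma-1(P240L)::gfp* and 739 and 680 in the double mutant. *col-10* and *col-144*, both linked to lifespan in published genetic work, had mean inputs of 10.6 and 10.7 RPKM. *col-7*, also an adult collagen, had a mean of 1.62 RPKM. *col-2*, a dauer collagen, *col-40*, *col-99*, which encodes a transmembrane collagen of neurons, and *col-120* averaged 0.168, 0.255, 0.725 and 0.52 RPKM. In N2 embryos the order differed. By CPM per kilobase of exon, *col-10* (33.0), *col-99* (26.96) and *col-144* (20.1) were the highest of these 9 and the others were under 1. *col-99* had 85.9 and 73.6 CPM in N2, 72.0 and 62.4 in the *oma-1(zu405)* libraries, 53.7 in D1 and 115 in D3.

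In each of the 3 strains, more collagen genes were called lower than higher in the OMA-1::GFP pulldown against input. The call used limma on log2(RPKM + 1), an adjusted p (Benjamini-Hochberg over all genes tested) under 0.05 and a log2 fold change past 1. All fold changes of RPKM below are on this scale, which understates changes of low genes. In *oma-1::gfp*, 59 of 156 members passed the level filter, 25 were lower in RIP and 3 higher. Among all genes tested, 19.4% were lower and 9.12% higher. The median log2 change was -0.82 for the members and -0.37 for all genes. In *oma-1(P240L)::gfp*, 48 of 83 members tested were lower and 2 higher, against 21.2% and 6.32% of all genes, with medians of -1.13 and -0.34. In the double mutant, 25 of 83 were lower and 6 higher, against 21.0% and 9.14% of all genes, with medians of -0.65 and -0.41. The members that passed the filter are not all members, and the other 97, 73 and 73 had too little RNA for the test. Some lower members were under 1 RPKM in both RIP libraries of a strain. They passed the filter of 1 RPKM in 2 libraries through input alone, which favours a fall. Among them were *col-34* in *oma-1::gfp*, and *col-13* and *col-73* in the other strains. Some markers of other tissues were also lower in the same RIP libraries. Of 6 yolk genes, 4 were lower in *oma-1::gfp*, all 6 were lower in the *oma-1(P240L)::gfp* strain, and 3 in the double mutant, and the marker values that follow keep this order. Of 9 body wall muscle genes 1, 7 and 0 were lower, and 1 was higher in the double mutant. Of the sperm genes, 7 of 12 tested, 12 of 23 and 23 of 25 were lower. The summed yolk level was 1600 to 1653 RPKM in input and 1075 to 1312 in RIP of *oma-1::gfp*, 1114 to 1140 and 223 to 251 in *oma-1(P240L)::gfp*, and 1755 to 1938 and 938 to 953 in the double mutant. The muscle sums were 754 to 769 and 487 to 626, then 843 to 849 and 817 to 1040, then 630 to 734 and 488 to 502. The sperm sums were 29.8 to 32.6 and 5.82 to 6.89, then 193 to 202 and 89.7 to 95.9, then 981 to 2066 and 143 to 303. The part of tissue content in the lower RIP levels was not tested.

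**Figure D2:**
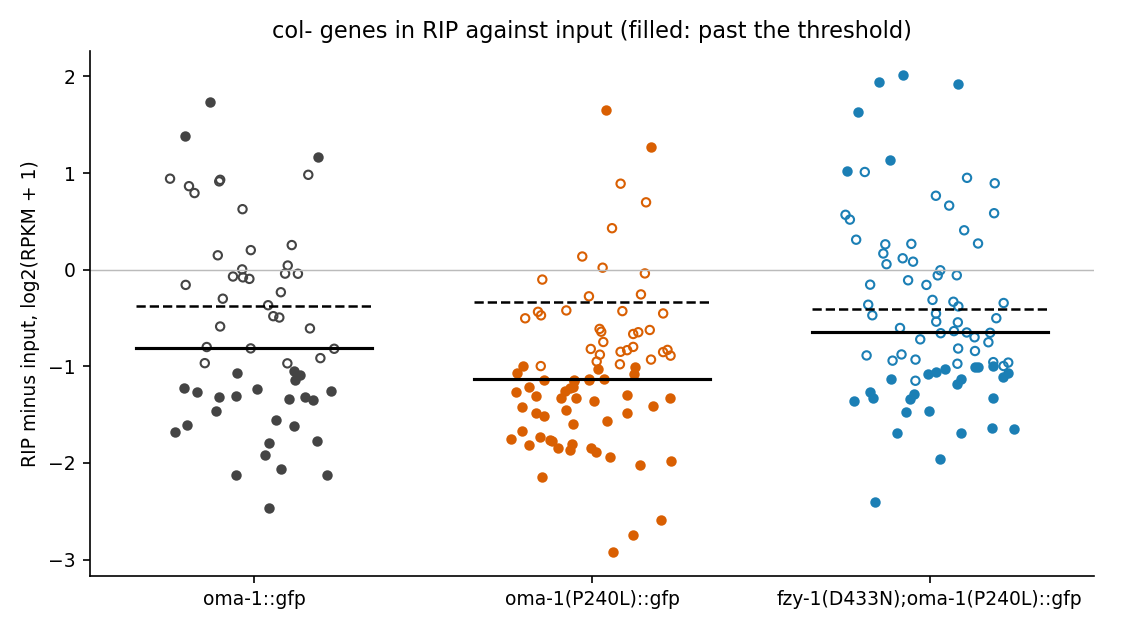
RIP minus input on the log2(RPKM + 1) scale for each *col-* gene tested, 59, 83 and 83 in the 3 strains. Filled points passed the threshold, the solid line is the median of the members and the dashed line the median of all genes tested. In each strain the solid line lies below the dashed line, and a few filled points lie above 1.

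The collagens lower in RIP included most of the abundant adult ones. *col-122* fell from the input levels above to RIP levels of 369 and 214 RPKM in *oma-1::gfp*, 214 and 318 in *oma-1(P240L)::gfp* and 353 and 242 in the double mutant. RIP and input libraries did not overlap in any strain. The log2 changes were -2.13 ± 0.39 (SE, limma adjusted p = 0.00359), -1.98 ± 0.20 (adjusted p = 0.000223) and -1.65 ± 0.39 (adjusted p = 0.0101). *col-181* gave -2.06, -2.75 and -1.69, and *col-184* -2.12, -1.60 and -1.96. 16 members were lower in all 3 strains, among them also *col-8*, *col-20*, *col-95*, *col-124* and *col-160*. A further 14 were lower in 2 strains and 22 in 1 strain. The matching numbers over all genes are not given here, so this sharing is not read as particular to collagens.

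Not every abundant collagen followed. *col-106*, the second most abundant, had 1006 and 637 RPKM in RIP of *oma-1::gfp* against 1114 and 959 in input, and -0.37 ± 0.40 on the log2 scale (adjusted p = 0.479). Its values in *oma-1(P240L)::gfp* were 516 and 669 in RIP against 986 and 991 in input, a difference of -0.75 ± 0.17 that passed the adjusted p (0.00748) but not the fold. *col-119* gave the lowest value in *oma-1(P240L)::gfp*, with 17.5 and 35.5 RPKM in RIP against 177 and 216 in input (-2.92 ± 0.29, adjusted p = 0.000209). *col-135* gave the lowest value in the other strains. It had 1.35 and 2.65 RPKM in RIP against 16.1 and 14.3 in input of *oma-1::gfp* (-2.47 ± 0.31, adjusted p = 0.000629).

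*col-101* and *col-179* went the opposite way in 2 of the 3 strains. *col-101* (IV:325435-327020, overlapped by *drl-1* on the opposite strand) had 295 and 358 RPKM in input of *oma-1::gfp* and 1248 and 945 in RIP. In the double mutant it had 244 and 299 in input and 938 and 1150 in RIP. The order was reversed in *oma-1(P240L)::gfp*, with 475 and 436 in input and 304 and 372 in RIP. The groups did not overlap in any strain. The log2 changes were 1.74 ± 0.36 in *oma-1::gfp* (adjusted p = 0.00633), 1.94 ± 0.38 in the double mutant (adjusted p = 0.00433) and -0.44 ± 0.15 in *oma-1(P240L)::gfp* (adjusted p = 0.0379, short of the fold threshold).

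*col-179* (X:11201465-11202485, overlapped by *C34F6.11* on the opposite strand) showed the same order. Input was 324 and 298 RPKM and RIP 892 and 737 in *oma-1::gfp*. Input was 226 and 191 and RIP 811 and 878 in the double mutant. In *oma-1(P240L)::gfp*, input was 414 and 425 and RIP 182 and 258. The log2 changes were 1.38 ± 0.34 (adjusted p = 0.0128), 2.02 ± 0.36 (adjusted p = 0.00276) and -0.95 ± 0.18 (adjusted p = 0.00331, also short of the fold threshold). No role is assigned to either gene here.

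The other members higher in RIP were of low abundance. *col-76* was higher in the same 2 strains, with 6.29 and 3.95 RPKM in RIP against 1.73 and 1.61 in input of *oma-1::gfp*. *col-113* was higher in *oma-1(P240L)::gfp* RIP, with 25.7 and 23.02 RPKM against 10.8 and 8.37 in input (1.26 ± 0.17, adjusted p = 0.000843), as was *col-86*. In the double mutant, *col-142*, *col-149* and *col-151* were also higher, and *col-142* had 30.7 and 20.3 RPKM in RIP against 12.6 and 11.1 in input (1.02 ± 0.30, adjusted p = 0.0241). *col-151* had 1.46 and 1.95 RPKM in RIP against 0.159 and 0.285 in input there. It passed the level filter through RIP alone, which favours a rise. No member was higher in all 3 strains, again without a matching number over all genes.

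**Figure D3:**
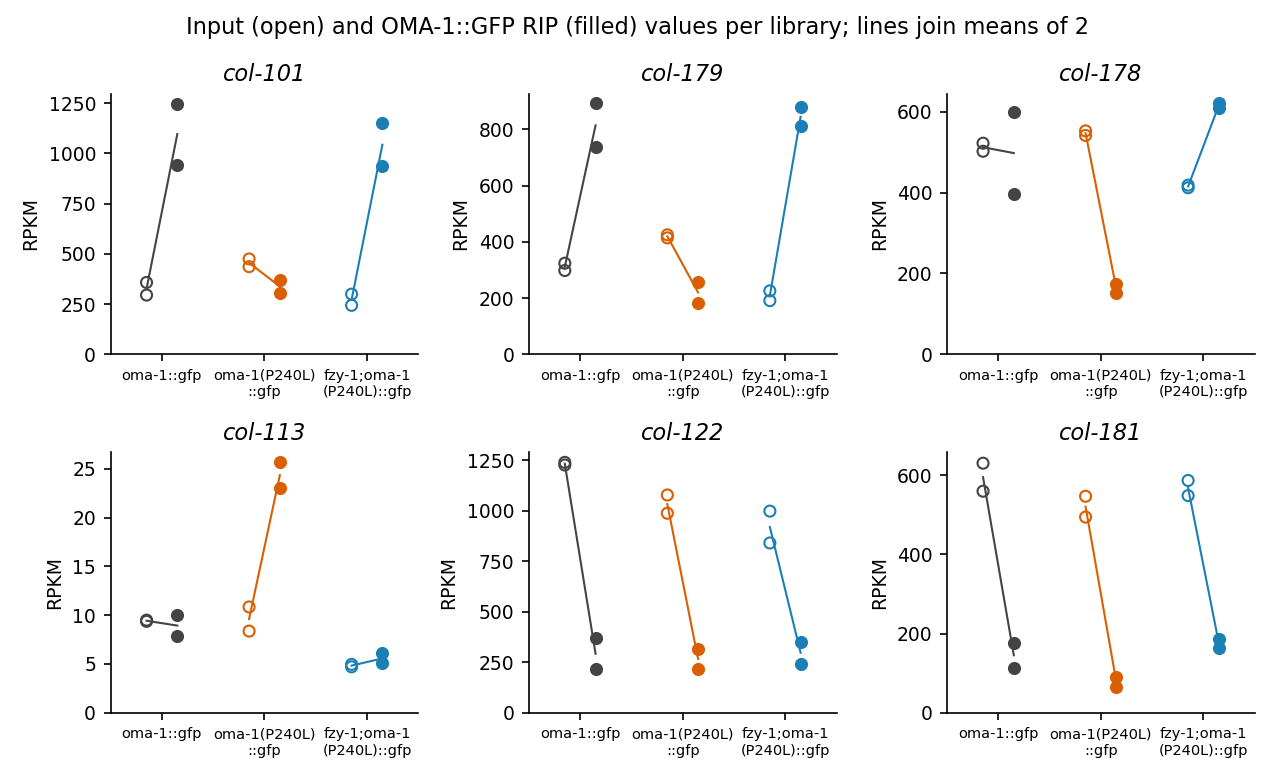
RPKM of 6 *col-* genes in input (open) and RIP (filled), 1 point per library, with lines joining the means of 2 libraries in each strain. *col-101* and *col-179* rise from input to RIP in *oma-1::gfp* and the double mutant and fall in *oma-1(P240L)::gfp*. *col-122* and *col-181* fall in all 3, and *col-113* rises in *oma-1(P240L)::gfp*.

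The RIP calls rest on 2 libraries per group. Without *oma-1::gfp* input 1 or input 2, 0 members were higher and 13 or 10 lower. The adjusted p became 0.11 or 0.0503 for *col-101* and 0.145 or 0.187 for *col-179*. In the double mutant, 6 were lower without input 1 and 3 without input 2. *col-122* there lost its call without input 1, input 2 or RIP 2 (adjusted p = 0.0527 to 0.0706), and *col-181* without input 2 (0.0508). *col-124* lost its call without either input of *oma-1::gfp* and without any 1 library of the double mutant (0.0582 to 0.271). *col-8* did so without either input of *oma-1::gfp* and without input 1 of the double mutant (0.0598 to 0.0747). *col-20* did so without *oma-1::gfp* input 2 and without input 2, RIP 1 or RIP 2 of the double mutant (0.0555 to 0.174), and *col-160* without input 2 of the double mutant (0.0608). In *oma-1(P240L)::gfp* 32 to 52 were lower. *col-142* lost its call without input 1, input 2 or RIP 1 of the double mutant (adjusted p = 0.118, 0.168 and 0.0963). Scaling the libraries to equal medians moved the median of all genes from -0.37 to -0.19 in *oma-1::gfp* and from -0.41 to -0.20 in the double mutant. The members then split into 8 higher and 21 lower, and 8 higher and 12 lower.

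Whether the enrichment itself differed between strains was tested in one limma fit of 12 libraries. Both differences use the *oma-1(P240L)::gfp* libraries. Of 94 members tested, 10 had a lower RIP to input ratio in *oma-1(P240L)::gfp* than in *oma-1::gfp*, and 1 a higher ratio, against 3.87% and 1.26% of all genes. The median difference was -0.43 over the members and -0.03 over all genes. The largest differences were those of *col-149* (-2.42 ± 0.41, adjusted p = 0.0069), *col-179* (-2.33 ± 0.34, adjusted p = 0.00342) and *col-101* (-2.17 ± 0.36, adjusted p = 0.00655). *col-60* (-1.78, adjusted p = 0.0388), at most 2.02 RPKM in any library, *col-129* (-1.69) and *col-178* (-1.68) followed. *col-178* is the neighbour of *col-179*, at X:11199455-11200467. *col-178* had 598 and 397 RPKM in RIP of *oma-1::gfp* against 522 and 502 in input, which overlap, and 151 and 173 against 553 and 541 in *oma-1(P240L)::gfp*, which do not. *col-113* was the member with the higher ratio (1.34 ± 0.30, adjusted p = 0.0253). In the same comparison 5 of 6 yolk genes (-2.16 to -1.46) and 3 of 9 body wall muscle genes (*unc-54*, *tnt-2* and *mup-2*, -3.40 to -1.47) had a lower ratio.

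Between the double mutant and *oma-1(P240L)::gfp*, 9 of 94 members had a higher ratio in the double mutant and 1 a lower one, against 5.86% and 3.60% of all genes. *col-149* differed by 3.40 ± 0.41 (adjusted p = 0.000674), *col-179* by 2.97 ± 0.34 (adjusted p = 0.000542), *col-101* by 2.37 ± 0.36 (adjusted p = 0.00278) and *col-178* by 2.32 ± 0.34 (adjusted p = 0.00237). *col-76* (1.91), *col-142* (1.84), *col-129* (1.65), *col-143* (1.24) and *col-116* (1.14) were the others, and *col-113* was lower (-1.10). Here 5 of 6 yolk genes (1.24 to 1.94) and the same 3 muscle genes (2.09 to 3.72) had a higher ratio, while 1 muscle gene and 9 of 25 sperm genes had a lower one. The part of tissue content in the collagen values was not tested. *col-149* was low throughout, with 0.886 and 0.273 RPKM in input and 2.12 and 1.84 in RIP of *oma-1::gfp*. The first comparison kept 3 lower members without *oma-1::gfp* input 1, 4 without input 2, 5 or 4 without *oma-1(P240L)::gfp* input 1 or 2, 5 without *oma-1::gfp* RIP 1 and 4 without *oma-1(P240L)::gfp* RIP 1. The call of *col-178* ended in all of these but the one without *oma-1::gfp* RIP 1, at an adjusted p of 0.0759 to 0.089. The call of *col-129* ended without *oma-1::gfp* input 1 and without either *oma-1(P240L)::gfp* input (0.0588 to 0.0596). *col-113* lost its call in each of these 6 fits. In the second comparison it lost it in 7 of 8, and *col-76* did so without *oma-1(P240L)::gfp* input 2 (adjusted p = 0.0547). With libraries at equal medians, the second comparison gave 14 higher and 0 lower.

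Some other genes of the cuticle were higher in RIP. *dpy-10*, a collagen of the annular furrows whose mutants are short, had 5.19 and 6.62 RPKM in input and 125 and 177.6 in RIP of *oma-1::gfp* (4.45 ± 0.29, adjusted p = 9.4e-05). It was also higher in *oma-1(P240L)::gfp*, with 2.18 and 1.69 RPKM in input and 23.6 and 26.7 in RIP, and in the double mutant, with 8.83 and 9.50 in input and 200 and 321 in RIP. Of 21 cuticle collagens outside the *col-* series, 2 of 7, 1 of 9 and 2 of 10 tested were higher in the 3 strains, and 0, 2 and 0 lower. *dpy-2*, another furrow collagen, was the second in *oma-1::gfp* and the double mutant. In a list of 12 molting and cuticle matrix genes, 7 of 9 tested were higher in *oma-1::gfp*, 1 of 4 in *oma-1(P240L)::gfp* and 7 of 10 in the double mutant. They include *noah-1* and *noah-2*, which encode apical matrix proteins, and *mlt-10*, a gene required for molting. The 14 genes that modify or crosslink collagen were mixed. *pdi-2*, a subunit of the prolyl hydroxylase, was higher in *oma-1::gfp*, with 270 and 144.3 RPKM in RIP against 55.96 and 63.2 in input. In the double mutant it was also higher (349 and 280 against 59.9 and 85.4), but not in *oma-1(P240L)::gfp* (0.04 ± 0.12). *pdi-1* was higher in *oma-1(P240L)::gfp* (1.45 ± 0.14) and not in the double mutant (-0.29 ± 0.29). *phy-3*, a prolyl hydroxylase, was lower in all 3 strains.

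Total RNA of young adults differed in collagen genes between strains. In *oma-1(P240L)::gfp* against *oma-1::gfp* inputs, 34 of 90 members tested were higher and 2 lower, against 3.72% and 2.38% of all genes. The median log2 difference was 0.60 over the members and -0.02 over all genes. Of the 34, 25 were under 2 RPKM in both *oma-1::gfp* inputs and 8 reached 10 RPKM in both *oma-1(P240L)::gfp* inputs. Some were under 1 RPKM in both *oma-1::gfp* inputs and passed the filter of 1 RPKM in 2 libraries on the *oma-1(P240L)::gfp* inputs, which favours a rise. Examples are *col-97* (0.0979 and 0.0483, then 1.89 and 1.35) and *col-168* (0.229 and 0.452, then 1.68 and 1.99). In bulk RNA, more expressing cells and more RNA per cell cannot be told apart.

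*col-81* had 5.59 and 9.87 RPKM in *oma-1::gfp*, 42.3 and 46.8 in *oma-1(P240L)::gfp* and 11.9 and 13.9 in the double mutant. *col-139* had 24.2 and 33.0, then 146 and 161, then 49.5 and 45.3. *col-129* had 16.8 and 18.4, then 74.2 and 73.4, then 31.7 and 26.2. The *oma-1(P240L)::gfp* inputs were the highest for all 3 genes and overlapped neither of the other strains. The differences from *oma-1::gfp* were 2.43 ± 0.24 (adjusted p = 0.00173), 2.40 ± 0.18 (adjusted p = 0.000499) and 2.01 ± 0.15 (adjusted p = 0.00048). *col-3* rose from 2.59 and 2.25 RPKM to 10.7 and 11.9, and *col-12* and *col-13* from 0.910 and 1.06 and from 1.10 and 0.904 to 6.79 and 5.75 and to 5.003 and 6.20. *col-159* rose from 33.5 and 35.2 to 99.5 and 86.5 RPKM, while *col-160*, which overlaps it, was not called.

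*col-95* and *col-121* fell. *col-95* (III:11703994-11705091) had 343 and 277 RPKM in *oma-1::gfp*, 68.7 and 64.0 in *oma-1(P240L)::gfp* and 196 and 144.03 in the double mutant, with no overlap between strains. The first difference was -2.20 ± 0.20 (adjusted p = 0.0012). *col-121*, chosen for mention after its values were seen, had 2.40 and 2.42 RPKM in *oma-1::gfp*, was listed at 0 and 0.0742 in *oma-1(P240L)::gfp*, and had 4.01 and 4.38 in the double mutant.

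**Figure D4:**
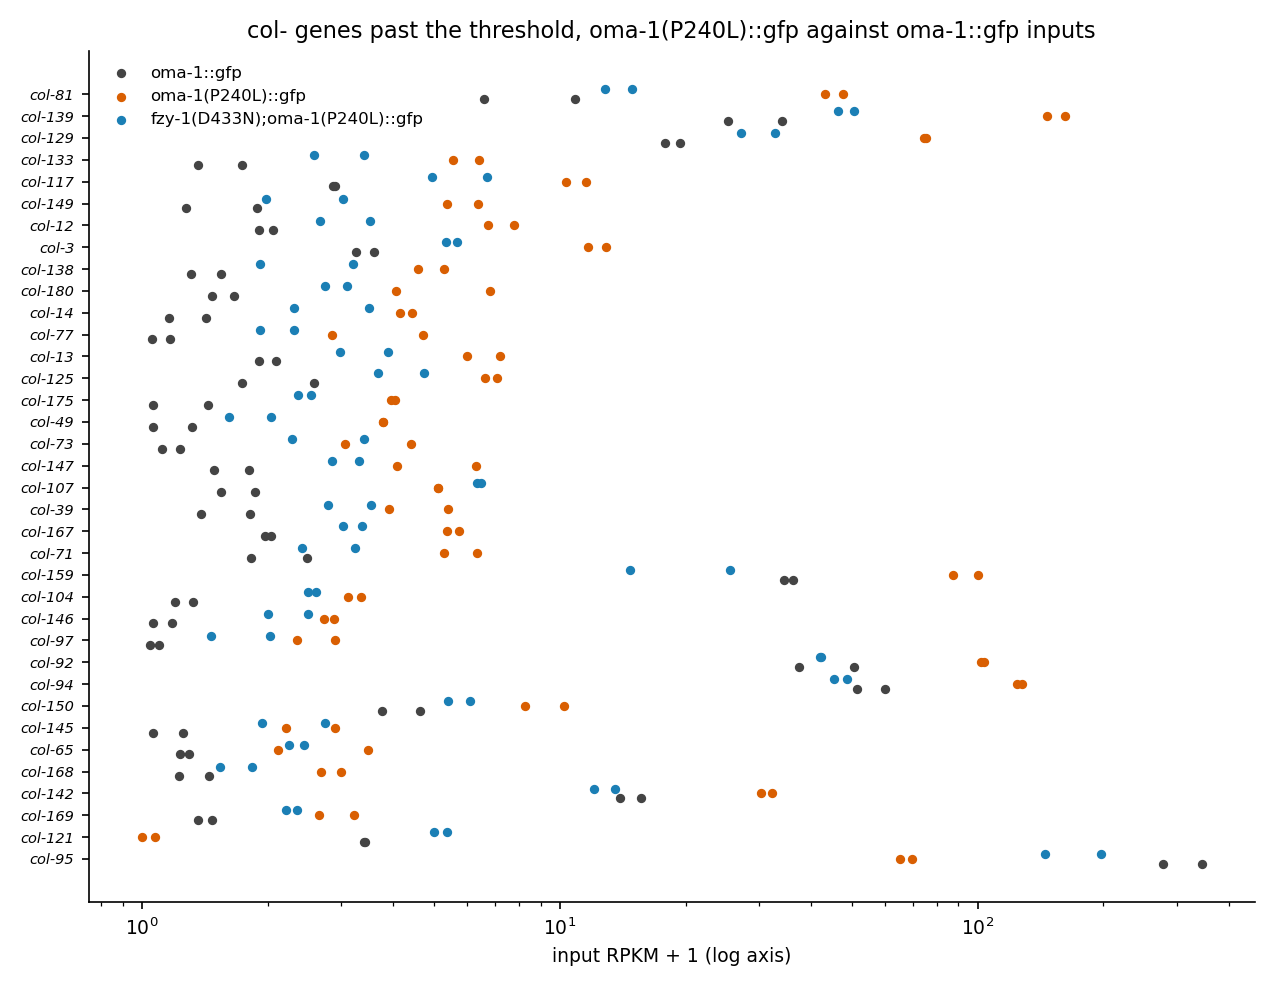
Input RPKM + 1 (log axis) of the 36 *col-* genes past the threshold between *oma-1(P240L)::gfp* and *oma-1::gfp*, 1 point per library, in order of the log2 difference. For *col-81*, *col-139* and *col-129* the double mutant points lie nearer those of *oma-1::gfp*, and *col-95* and *col-121* lie at the bottom.

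Between the double mutant and *oma-1(P240L)::gfp* inputs, 18 of 90 members were lower and 4 higher, against 2.49% and 7.99% of all genes, with medians of -0.40 over the members and 0.16 over all genes. The lowest were *col-159* (24.6 and 13.7 RPKM in the double mutant, -2.27 ± 0.25, adjusted p = 0.00151), *col-81* (-1.71) and *col-139* (-1.67). *col-94* (-1.42) and *col-129* (-1.33) followed. *col-95* was higher by 1.33 ± 0.20 (adjusted p = 0.00434). The other members higher in the double mutant were *col-74*, *col-121* and *col-165*, which were at or near 0 in *oma-1(P240L)::gfp*. *col-165* was listed at 0 in both inputs there and had 3.81 and 2.59 RPKM in the double mutant. *col-74* and *col-165* were under 1 RPKM in every input of the other strains. They passed the filter through the double mutant alone, which favours a rise. The comparisons share the *oma-1(P240L)::gfp* inputs, so their values stand side by side and no overlap is given. Between the double mutant and *oma-1::gfp*, 7 members were higher and 1 lower, against 5.06% and 0.594% of all genes. *col-107* was the highest, with 0.865 and 0.549 RPKM in *oma-1::gfp* and 5.35 and 5.49 in the double mutant (1.92 ± 0.18, adjusted p = 0.000798), and *col-96* the member that was lower (-1.08 ± 0.19, adjusted p = 0.0132).

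The number of members higher in *oma-1(P240L)::gfp* fell to 15 or 21 without *oma-1::gfp* input 1 or 2, and to 15 or 8 without *oma-1(P240L)::gfp* input 1 or 2. The call of *col-159* ended in each of these 4 fits (adjusted p = 0.0817 to 0.137), and that of *col-13* without *oma-1(P240L)::gfp* input 2 (0.0535). The 18 members lower in the double mutant became 10 or 11 without *oma-1(P240L)::gfp* input 1 or 2, and 11 without double mutant input 2, while the 4 higher became 2 without that library. *col-95* lost its higher call without *oma-1(P240L)::gfp* input 2 (0.0548). Against *oma-1::gfp*, the 7 higher members became 2 or 4 without *oma-1::gfp* input 1 or 2 and 4 without double mutant input 2. The 1 lower member became 0 without *oma-1::gfp* input 2 (*col-96*, adjusted p = 0.0992), and 5 or 2 without double mutant input 1 or 2.

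Other cuticle genes moved as well. Of 12 cuticle collagens outside the *col-* series that were tested, 7 were lower and 4 higher in *oma-1(P240L)::gfp* than in *oma-1::gfp* input. *dpy-17* had 95.8 and 77.5 RPKM in *oma-1::gfp* and 9.17 and 7.18 in *oma-1(P240L)::gfp*, and *sqt-3* had 22.4 and 25.1 and then 3.46 and 3.90. *dpy-7* and *dpy-10*, both furrow collagens, also fell, while *dpy-13*, *dpy-5*, *dpy-4* and *bli-6* rose. The summed RPKM of the 20 measured genes of this list was 227 and 197 in *oma-1::gfp*, 46.3 and 40.5 in *oma-1(P240L)::gfp* and 279 and 281 in the double mutant. Of 26 sperm genes, 25 were tested and 23 were higher in *oma-1(P240L)::gfp* than in *oma-1::gfp*. All 25 were higher in the double mutant than in either other strain. Of 9 body wall muscle genes and 6 yolk genes of the adult intestine, 0 and 0 passed both the adjusted p and the fold threshold between *oma-1(P240L)::gfp* and *oma-1::gfp*. *vit-3*, a yolk gene, passed the adjusted p alone (-0.96, adjusted p = 0.0403). The part of these groups in the collagen differences was not tested.

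In N2 embryos other collagen genes predominated. By CPM per kilobase of exon, the 10 highest in N2 were *col-165*, *col-74*, *col-121*, *col-107*, *col-65*, *col-76*, *col-14*, *col-109*, *col-97* and *col-125*. Of these, 0 were among the 10 highest of adult input, though sets of 10 among 156 members would share few by chance. The 10 embryo genes held 69.5% and 71.3% of the members' CPM in A1 and A2, the libraries in which they were chosen. The 10 leading adult genes held 0.0615% and 0.0156% there. In adult input the embryo set averaged 17.8 RPKM in sum and the adult set 7356. 10 members had 0 counts in all 6 embryo libraries. The members took 0.285% and 0.323% of all counts in N2, 0.0525% and 0.0531% in the *oma-1(zu405)* libraries, 0.0543% in D1 and 0.152% in D3.

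Of these 10 leading embryonic collagens, 3 were called lower in *oma-1(zu405)* than in N2, where 22.6% of all genes tested were lower. The 10 were chosen by their level in the same N2 libraries, which favours a fall. *col-165* (X:4353618-4354852) had 309 and 348 CPM in N2 and 76.6 and 68.7 in *oma-1(zu405)*. *col-74* (II:5830374-5832022) had 264 and 325, then 38.5 and 37.9. *col-65* had 66.3 and 72.3, then 12.5 and 17.4. The genotypes did not overlap for any of the 3, which are given because they were called, after their values were seen. By edgeR's quasi-likelihood test the log2 fold changes were -2.24 ± 0.16 (adjusted p = 2.73e-13), -3.01 ± 0.17 (adjusted p = 1.42e-15) and -2.36 ± 0.19 (adjusted p = 6.35e-12). The other 7 were not called, with log2 fold changes of -1.70 (*col-107*) to -0.54 (*col-97*), short of the fold threshold.

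Called at an adjusted p under 0.05 and a log2 fold change past 2, 12 of 65 members tested were lower and 7 higher in *oma-1(zu405)*, against 22.6% and 11.6% of all genes. The lower count is 18.5% of the members tested and the higher one 10.8%, both near the shares over all genes. The median log2 fold change was -0.95 over the members and -0.24 over all genes. Of the 12 lower members, *col-54*, *col-75*, *col-115*, *col-56*, *col-177*, *col-58*, *col-39* and *col-168* had under 10 counts in both *oma-1(zu405)* libraries. They passed the filter of 10 counts in 2 libraries through N2 alone, which favours a fall. *col-54* had 4.41 and 4.32 CPM in A1 and A2 and 2 and 0 counts in C1 and C2, a ratio of 33.2 in scaled counts with a 95% exact interval of 9.06 to 276 for counting error. *col-75* had 104 and 20 counts in N2 and 0 in both *oma-1(zu405)* libraries, at least 14.5-fold lower against 3 counts over the group. *col-115* had 11.4 and 15.2 CPM in N2 and 0.644 and 0.371 in *oma-1(zu405)* (-4.48 ± 0.42, adjusted p = 1.14e-10), and *col-77* had 30.8 and 37.02, then 2.66 and 4.08 (-3.53 ± 0.28, adjusted p = 1.8e-12). *col-56* and *col-177* fell by 3.89 and 3.64 on the log2 scale. *col-10* and *col-144* passed the adjusted p but not the fold, at -1.43 and -1.46, and *col-99* did neither (-0.31 ± 0.16, adjusted p = 0.0883).

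The 7 members higher in *oma-1(zu405)* were all low in N2, and none reached 30 counts in every *oma-1(zu405)* library. They are named because they are few. *col-83*, which overlaps *F33A8.4* on the same strand, had 0.644 and 0.767 CPM in N2, 9.75 and 9.28 in the *oma-1(zu405)* libraries, 135 in D1 and 2.16 in D3. *col-42* had 0.368 and 0.479, then 4.35 and 6.68, then 16.04 and 3.20. *col-38* (0.552 and 0.671, then 5.88 and 7.80) and *col-176* (0.215 and 0.0959, then 3.14 and 3.71) were separated in the same way. *col-176* passed the count filter through *oma-1(zu405)* alone, which favours a rise. *col-98*, *col-101* and *col-86* were the others, and *col-101* rested on 10 and 1 counts in N2 and 17 and 1 in *oma-1(zu405)*. Of the 21 members at 100 RPKM or more in adult input, only 5 had enough counts to be tested in embryos. Of the 5, *col-42*, *col-98* and *col-101* were higher, where 11.6% of all genes tested were. Among the 21, 6 and 12 had 0 counts in A1 and A2, and 11 and 13 in C1 and C2. The summed counts of the 21 were 175 and 58 in N2 and 272 and 79 in *oma-1(zu405)*. The 6 yolk genes of the adult intestine summed to 2.82 and 4.52 CPM of all counts in N2 and 1.02 and 2.01 in *oma-1(zu405)*, and 1 of the 6 was tested and not called.

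**Figure D5:**
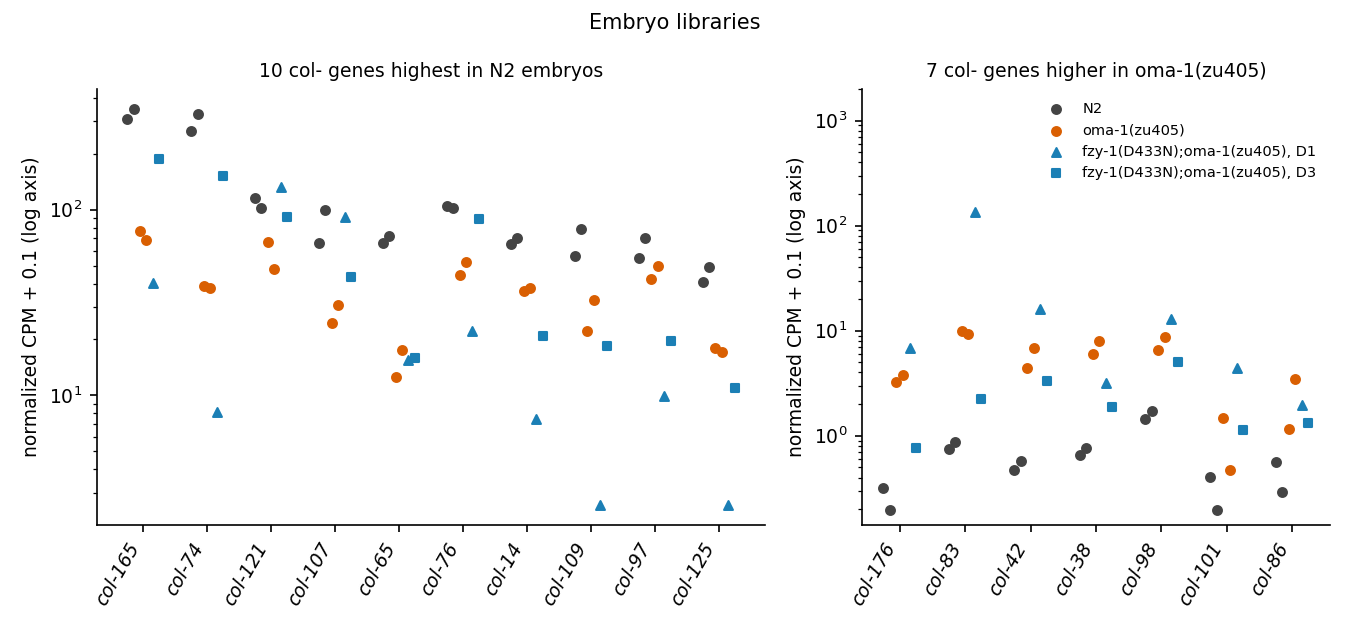
Scaled CPM + 0.1 (log axis) in each embryo library for the 10 *col-* genes highest in N2 (left) and the 7 higher in *oma-1(zu405)* (right). Circles are N2 and *oma-1(zu405)*, the triangle is D1 and the square D3. *col-74* lies at 264 and 325 in N2, 150.6 in D3, 38.5 and 37.9 in the *oma-1(zu405)* libraries and 8.02 in D1.

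With library totals in place of TMM factors the median of all genes moved from -0.24 to -1.51, and 4 members were higher and 34 lower. Without A1, 4 were higher and 9 lower. Without A2, 7 were higher and 5 lower, and in one fit of all 6 embryo libraries 0 members and 0 of all genes were called. Between the same libraries, 2 of 9 body wall muscle genes and 2 of 10 epidermal and molting regulators (*blmp-1* and *grh-1*) were lower, close to the 22.6% of all genes. Of 12 molting and cuticle matrix genes, 4 of 11 tested were lower. Of 13 oocyte and eggshell genes, 9 of 11 tested were higher, against 11.6% of all genes. *sqt-3* (1278 and 1702 CPM in N2, 1545 and 1933 in *oma-1(zu405)*, adjusted p = 0.5) and *dpy-7* (156 and 142.2, then 205 and 189, adjusted p = 0.0479, short of the fold threshold) were not called. The part of stage or tissue content in the *col-* differences was not tested.

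No member was called in the *fzy-1(D433N);oma-1(zu405)* embryos against either genotype. edgeR called 0 genes of all tested in both comparisons, with 506 genes against N2 and 861 against *oma-1(zu405)* at an unadjusted p under 0.05. Among the members, 6 were higher and 12 lower than N2 at that unadjusted p, and 0 differed from *oma-1(zu405)*. DESeq2 called 3 members higher and 2 lower than N2, where it called 371 genes higher and 15 lower in all. D1 and D3 lay far apart. *col-165* had 40.1 CPM in D1 and 186 in D3, *col-74* 8.02 and 150.6, and *col-76* 22.2 and 88.5, so D3 lay between N2 and *oma-1(zu405)* for all 3 and D1 below both. *col-121* (132 and 91.2) and *col-107* (91.3 and 43.2) had the opposite order. With D1 or D3 left out, the lone double mutant library was taken to vary like the other genotype. Some members then passed the threshold against each genotype. The matching numbers over all genes are not given here, so these calls are not read as a result about collagens.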

How the data were processed

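The authors aligned embryo reads with HISAT2 2.0.5 and counted them with HTSeq 0.6.0 after CASAVA 1.4 (per the submitters' processing notes) and deposited whole counts per gene. The genome build is not given in the sources used here, so coordinates come from WBcel235 by gene identifier. For RIP and input, the authors deposited normalized values that were taken as RPKM on a scale 1000 times larger and divided by 1000. That scale is inferred from the steps between low values and the column sums, and the RPKM levels and the effect of the pseudocount depend on it. The authors' fold changes and p-values were not used. Another 32 per-sample columns were left out. The germline and soma classes are the authors' annotation columns.

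Embryo counts were tested with edgeR 4.0.16 (TMM, quasi-likelihood, Benjamini-Hochberg, at least 10 counts in 2 libraries) in R 4.3.3, each pair of genotypes alone. RPKM values were tested with limma 3.58.1 on log2(RPKM + 1) with a trend (at least 1 RPKM in 2 libraries), RIP against input within a strain, inputs in one fit of 6 libraries and differences of enrichment in one fit of 12. All tests were two-sided. DESeq2 1.42.0 was an alternative. Tables were made with Python 3.11.15 and pandas 2.3.3, and figures with matplotlib 3.10.9. The tests were checked on simulated data.

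Genes named are the 10 highest in mean input, up to 5 called members per comparison and direction with at least 10 RPKM (30 counts) in each library of the group with more, the *col-* genes with a described role, and 7 genetically defined collagens. Others were added after their values were seen. Of the 7, *rol-6*, *sqt-1* and *bli-1* passed the level filter in no comparison. Members and lists were chosen with earlier results of these data known. Alternatives changed the pseudocount, filter, scaling, tool, pairing and libraries.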

Additional observations from a re-analysis of the deposited data

Results flagged for a closer look

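Some collagen genes gave RIP to input ratios that differed between strains in the test of that difference (limma, log2 scale, all 12 libraries). From *oma-1::gfp* to *oma-1(P240L)::gfp* the change of the ratio was -2.33 for *col-179*, -2.17 for *col-101*, -1.69 for *col-129*, -1.68 for *col-178* and 1.34 for *col-113*. From *oma-1(P240L)::gfp* to the *fzy-1* double mutant the change was 2.97 for *col-179*, 2.37 for *col-101*, 2.32 for *col-178*, 1.91 for *col-76*, 1.84 for *col-142* and -1.10 for *col-113*. Both comparisons use the *oma-1(P240L)::gfp* libraries, so they are not independent. *col-178* and *col-179* are neighbours on chromosome X, 998 bases apart.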

How the results depend on the processing

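No alternative was added after the data were seen, and none reversed the direction of a named, called gene. Of single-gene values of named genes under all alternatives, 1709 kept their side of the threshold, 28 moved past it and 86 fell short of it. Counts of called members that moved by over 1.5 times follow, as higher and lower. The cause was not tested.

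In *oma-1(zu405)* against N2 embryos, 7 and 12 became 4 and 34 with total counts as scaling, 4 and 6 with at least 10 counts in 3 libraries, 0 and 0 in one fit of all 6 libraries, and 15 higher with no filter. The double mutant against N2, 0 and 0, gave 3 and 2 with DESeq2 and 7 and 5 with no filter, and against *oma-1(zu405)* 1 higher with no filter. Omitting 1 library at a time gave 4 to 7 and 5 to 14 in the first comparison, 0 to 10 and 0 to 22 in the second, and 0 to 10 and 0 to 9 in the third. Where that leaves 1 library, it is assumed to vary like the other group.

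In RIP against input of *oma-1::gfp*, 3 and 25 became 7 higher at a pseudocount of 0.1, 0 and 10 with no filter and 8 higher at equal medians. In *oma-1(P240L)::gfp*, 2 and 48 became 1 and 19 at a pseudocount of 5, 1 higher with no filter and 1 and 30 at 5 RPKM in 2 libraries. In the double mutant, 6 and 25 became 3 and 12 at a pseudocount of 5, 16 lower at 5 RPKM and 12 lower at equal medians. Omitting 1 library gave 0 to 4 and 10 to 28, 2 to 2 and 32 to 52, and 4 to 6 and 3 to 26.

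For inputs, *oma-1(P240L)::gfp* against *oma-1::gfp*, 34 and 2, gave 4 lower at a pseudocount of 0.1, 8 and 1 at 5, and 14 and 1 at 5 RPKM. The double mutant against *oma-1::gfp*, 7 and 1, gave 14 higher, 0 and 0, and 1 higher under the same settings. Against *oma-1(P240L)::gfp*, 4 and 18 became 1 and 11 at a pseudocount of 5 and 1 higher at 5 RPKM. Omitting 1 library gave 8 to 21 and 2 to 2, 2 to 7 and 0 to 5, and 2 to 4 and 10 to 21.

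For the difference of enrichment, the 10 lower members of the first comparison became 6 at a pseudocount of 0.1, 5 at 5 and 6 at 5 RPKM. In the second, the 1 lower became 0 at a pseudocount of 0.1, at 5 and at equal medians, the last with 14 higher in place of 9. Omitting 1 library gave 0 to 1 and 3 to 10, then 6 to 10 and 0 to 1.

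The main fits did not pair RIP and input libraries by repeat number. Correlations of deviations from group means were 0.081, 0.0335 and 0.273 between input and RIP of a strain, and 0.038, 0.463 and 0.086 between inputs. The value of 0.463 was between the *oma-1::gfp* and double mutant inputs, so some shared deviation by repeat number is possible. With the replicate block, RIP gave 3 and 25, 2 and 48, and 7 and 26 in the 3 strains, inputs 35 and 2, 7 and 1, and 4 and 18, and differences of enrichment 1 and 12, and 11 and 1. The embryo columns carry no repeat numbers, so no block was fitted for embryos. In embryos, depth limits values under 0.159 to 0.833 CPM of library totals, before TMM scaling.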
